A study of Mus musculus with 6 samples.

Results

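The Hedgehog pathway was examined in cultured cortical bone through 9 genes, *Ihh*, *Ptch1*, *Smo*, *Hhip*, *Gas1*, *Sufu*, *Gli1*, *Gli2* and *Gli3*, taken by gene symbol with every probe that carried one of these names. Of the 9 symbols, 8 had a row in the deposited table, with 17 of its 45281 probes, out of 31508 symbols in all. No row carried the symbol *Gli1*. A row listed as *Gli*, above background on no array, is not paired with *Gli1* in the RefSeq table and was kept out of the counts. Bone tubes, the shafts of tibia and femur from C57BL6 mice with an age of 3 months in the sample labels, had been flushed of marrow and digested with collagenase and trypsin, cultured overnight, and then kept for 24 hours without treatment (control) or with 250 nM PTH 1-34. Each preparation pooled the bones of several mice, and its RNA was hybridized to 1 Illumina mouse bead array, giving 3 control arrays and 3 PTH arrays. No label says that the preparations of a group came from separate sets of mice, so the p-values measure the spread between these arrays, which may be partly technical.

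Hedgehog ligands are secreted proteins that bind the receptor PTCH1. Without ligand, PTCH1 holds the membrane protein SMO inactive, and protein kinase A directs the GLI2 and GLI3 transcription factors toward repressor forms. With ligand, SMO gathers in the primary cilium and GLI activators raise target genes that include *Gli1*, *Ptch1* and *Hhip*. In bone the ligand is best known in the growth plate, where Indian hedgehog from chondrocytes keeps up the production of PTH-related protein, the second ligand of the PTH receptor, and also drives formation of the osteoblast lineage. The PTH receptor signals largely through cAMP and protein kinase A.

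The promoters were read from RefSeq (build GRCm38.p6), which held a window for each of the 8 genes with a row. A pair of them is printed, that of *Gli3* because this gene had the smallest p-value of the 9 and that of *Hhip* because it alone held a full cAMP response element. Only bases before the outermost annotated start of each gene are shown, 5′ to 3′ on the strand of the gene. The *Gli3* bases are chr13:15463473-15463722 on the plus strand, with GC boxes (GGGCGG or its reverse complement) in capitals, and the *Hhip* bases are chr8:80058061-80058258 on the minus strand, with the cAMP response element (TGACGTCA) in capitals.
Gli3: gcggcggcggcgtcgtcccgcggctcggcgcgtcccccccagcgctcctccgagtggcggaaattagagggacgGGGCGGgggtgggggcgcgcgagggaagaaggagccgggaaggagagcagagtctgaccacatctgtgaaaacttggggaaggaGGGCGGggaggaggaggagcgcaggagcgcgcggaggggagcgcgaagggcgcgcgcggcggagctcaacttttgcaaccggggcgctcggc
Hhip: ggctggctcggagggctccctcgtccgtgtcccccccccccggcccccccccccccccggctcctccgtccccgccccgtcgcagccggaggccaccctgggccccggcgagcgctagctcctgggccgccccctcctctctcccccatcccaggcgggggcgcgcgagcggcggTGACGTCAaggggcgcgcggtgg

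The first 250 bases of all 32851 promoter windows were searched on both strands. For *Hhip* only the 198 bases printed above lie before the outermost annotated start, and the searched stretch runs past it. The cAMP response element was in 1 of the 8 Hedgehog windows and in 1.55% of all windows. The GLI consensus GACCACCCA was in 0 of the 8 and in 0.225% of all. The GC box was in 7 of the 8, all but that of *Smo*, and in 32.7% of all windows. These matches describe the letters only, and the arrays carry no measurement of the promoters.

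A probe was taken as above background on an array when its deposited detection p-value, which compares it with the negative controls, was under 0.05. Of the 17 Hedgehog probes, 5 exceeded background on every one of the 6 arrays and 4 never did. The 5 belonged to *Ptch1*, *Smo*, *Sufu* and *Gli3*. Probes above background on at least 3 arrays were tested, which kept 9 of the 17 probes and 6 genes, and left out *Hhip* and *Gas1*. Signals were background corrected, quantile normalized and expressed as log2 values, so that 1 unit is a doubling of signal. Levels of different probes cannot be set against each other on this array.

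None of the 9 probes was called, meaning a fold change of 1.5 or more together with an adjusted p under 0.05 (limma, adjusted over 16214 probes), where 1.61% of all probes tested did. At an unadjusted p under 0.05, 1 of the 9 passed, against 14.6% of all probes. The log2 fold changes of the 9 probes lay between -0.40 and 0.45, with 5 above 0 and 4 below. Over the 6 genes by their brightest tested probe, the median log2 fold change was 0.18, and over all 11979 genes tested it was 0.01. No change of the Hedgehog genes was therefore established at this number of arrays.

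**Figure D1:**
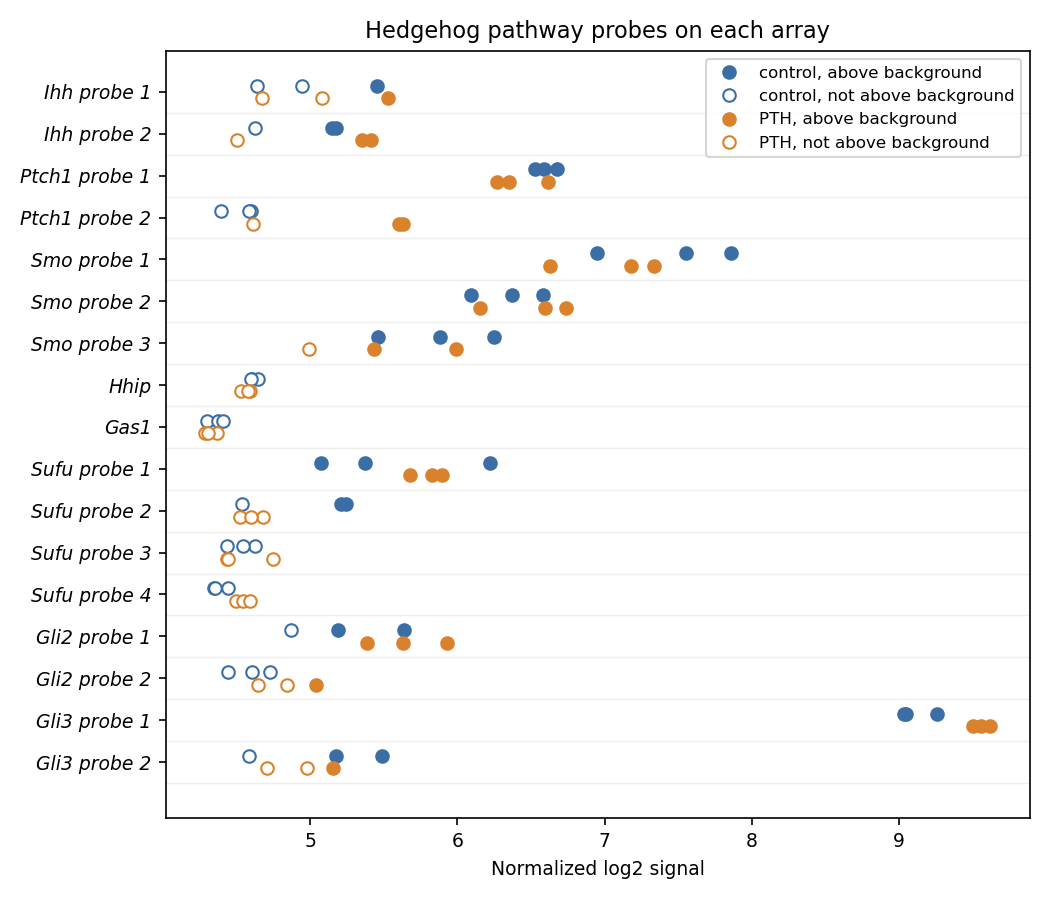
Normalized log2 signal (x axis) of the 17 Hedgehog probes (y axis, numbered within a gene from the brightest) on each array, with control in blue, PTH in orange, filled points above background and open points not above it. The groups are apart on *Gli3* probe 1, at 9.03 to 9.25 in control and 9.50 to 9.62 with PTH. They are also apart on *Ptch1* probe 2, *Sufu* probe 4 and *Hhip*, which are near background and were not tested. All probes of *Hhip* and *Gas1* are open on every array.

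*Ihh* encodes Indian hedgehog, the ligand. Its probes were near background. Probe 1 (ILMN_2699737) was above background on 1 control and 1 PTH array and was not tested. Probe 2 (ILMN_2586246) was above background on 2 arrays of each group, with a log2 signal of 4.63, 5.15 and 5.18 in control and 5.35, 4.50 and 5.42 with PTH. The groups overlapped, and the log2 fold change was 0.11 (SE 0.27, adjusted p = 0.902 by limma). The 95% interval ran from 0.698 to 1.66 times the control signal.

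The shafts had been freed of their epiphyses. Of 12 cartilage genes, 6 were tested and 4, *Matn1*, *Matn3*, *Cnmd* and *Hapln1*, were above background on no array. The signals of the 6 were summed on the linear scale and the sum was expressed as log2. It was 9.93 to 10.02 on the control arrays and 10.00 to 10.06 on the PTH arrays. *Sox9*, a transcription factor gene, made up 57.2% to 74.5% of the linear sum, a share of signal and not of transcripts. The genes did not move alike. *Acan*, the gene of the proteoglycan aggrecan, listed as *Agc1*, was called lower (adjusted p = 0.0114 by limma) and was above background on all 3 control arrays and no PTH array, which bounds it at least 1.59-fold lower. The collagen genes *Col10a1* and *Col2a1* had log2 fold changes of -0.90 and -0.47 and *Sox9* one of 0.32, each with groups that were apart and none passing (adjusted p = 0.0918, 0.169 and 0.233 by limma). *Col10a1* was above background on 3 control arrays and 1 PTH array. The part of the cartilage genes in the *Ihh* signal was not tested. In bulk RNA, fewer cells of one type and less RNA per cell cannot be told apart.

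*Ptch1* is the receptor of the ligand and itself a target gene of the pathway. Probe 1 (ILMN_2460224) was above background on all 6 arrays, at 6.59, 6.68 and 6.53 in control and 6.62, 6.35 and 6.27 with PTH. The groups overlapped on this probe, and the log2 fold change was -0.19 (SE 0.14, adjusted p = 0.599 by limma). Its 95% interval ran from 0.704 to 1.09 times control, and the log2 fold change lay between -0.29 without PTH replicate 1 and -0.11 without PTH replicate 3. The dimmer probe 2 (ILMN_1248463) exceeded background on 2 PTH arrays but on none of the controls, with 4.39, 4.60 and 4.58 in control and 5.60, 5.63 and 4.61 with PTH. The remaining PTH array, at 4.61, was level with the highest control array. With too few arrays above background it was not tested. Its PTH mean was 1.17 times the dimmest signal that still exceeded background, averaged over the control arrays. That mean takes in the PTH array at 4.61, which was itself not above background, so 1.17 is not a lower limit.

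*Hhip* encodes a membrane protein that binds and sequesters the ligand and is a target gene, and *Gas1* encodes a coreceptor that helps PTCH1 bind it. Each had 1 probe, and neither probe was above background on any of the 6 arrays. The log2 signal of *Hhip* was 4.60 to 4.65 in control and 4.53 to 4.59 with PTH, and that of *Gas1* 4.30 to 4.40 and 4.29 to 4.37. No fold change is given for either gene, and a low transcript level was not detectable by these probes.

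*Smo* encodes the membrane protein that relays the signal. All 3 of its probes were tested. Probe 1 (ILMN_2986978) read 6.95, 7.86 and 7.55 in control and 6.63, 7.34 and 7.18 with PTH, giving a log2 fold change of -0.40 (SE 0.27, adjusted p = 0.562 by limma). The spread within each group was as wide as the difference between them. Probe 3 (ILMN_2741611), above background on 5 of the 6 arrays, gave a similar log2 fold change of -0.39 (SE 0.29, adjusted p = 0.600 by limma). Probe 2 (ILMN_2741614) read 6.58, 6.37 and 6.09 in control and 6.59, 6.74 and 6.15 with PTH, giving a log2 fold change of 0.15 (SE 0.20, adjusted p = 0.796 by limma). The 3 probes did not give 1 direction, and the groups overlapped on each. Single arrays moved all of these values. Probe 1 ranged from -0.66 without control replicate 1 to -0.19 without PTH replicate 1, probe 3 from -0.65 without PTH replicate 2 to -0.15 without PTH replicate 1, and probe 2 from 0.02 without control replicate 3 to 0.31 without PTH replicate 3. The mean over the 3 changed by -0.22 (95% interval -0.61 to 0.17). A further row listed as *E130215L21Rik*, which RefSeq gives as an older name of *Smo*, was above background on no array.

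*Sufu* encodes a cytoplasmic protein that binds GLI factors and restrains them. Of its 4 probes, probe 1 (ILMN_2441176) alone was tested, above background on all 6 arrays. It read 5.38, 5.07 and 6.22 in control and 5.90, 5.68 and 5.83 with PTH. The PTH arrays lay inside the control range, and the log2 fold change was 0.25 (SE 0.27, adjusted p = 0.745 by limma). This value rested on the control arrays, being 0.57 without control replicate 3 and between 0.01 and 0.31 without 1 of the other arrays. Probe 2 was above background on 2 control arrays and no PTH array, at 4.54 to 5.25 against 4.53 to 4.68, and probes 3 and 4 on none. The bound for probe 2 was under 1, so no fold change is given.

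*Gli2* encodes the main activator of the pathway. Its probe 1 (ILMN_2522863) read 5.19, 5.64 and 4.87 in control and 5.93, 5.39 and 5.63 with PTH, above background on 2 control and 3 PTH arrays. The groups overlapped, with a log2 fold change of 0.42 (SE 0.23, adjusted p = 0.451 by limma) and a 95% interval from 0.930 to 1.92 times control. The log2 fold change was 0.23 without control replicate 3 and 0.63 without control replicate 2. Probe 2 was above background on 1 PTH array only.

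*Gli3* encodes the factor that acts mostly as the repressor of the pathway. Probe 1 (ILMN_2449396) was well above background on all 6 arrays. Its deposited signal, before any normalization, was 510, 704 and 609 in control and 707, 906 and 1126 with PTH. After normalization the log2 signal was 9.03, 9.25 and 9.04 in control (9.11 ± 0.12, SD, n = 3) and 9.56, 9.62 and 9.50 with PTH (9.56 ± 0.06, SD, n = 3). All 3 PTH arrays were higher than all 3 control arrays, as on 10.3% of all probes tested. This was the only 1 of the 9 Hedgehog probes where that held.

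The log2 fold change of *Gli3* probe 1 was 0.45 (SE 0.12), a 1.37-fold higher signal with PTH with a 95% interval from 1.12 to 1.67. The unadjusted p was 0.00703 and ranked 777th among 16214 probes, and the adjusted p was 0.147 (limma), so the probe did not pass. Quantile normalization without background correction, the normalization named in the methods, brought the adjusted p to 0.0168 (limma) at a log2 fold change of 0.39, which is below the fold change minimum of 1.5. Over the 13 alternatives that fitted this probe by itself, which all kept the direction, the adjusted p otherwise lay between 0.0653 and 0.614.

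The other *Gli3* probe did not show the difference, but it read near background, which limits what could be seen with it. Probe 2 (ILMN_1215183) was above background on 2 control arrays and 1 PTH array, at 5.49, 5.18 and 4.58 in control and 5.16, 4.98 and 4.71 with PTH. The groups overlapped, and the log2 fold change was -0.14 (SE 0.24, 95% interval -0.69 to 0.42, adjusted p = 0.852 by limma). The mean over both probes, which gives the probe near background equal weight, changed by 0.16 (95% interval -0.20 to 0.51, adjusted p = 0.691 by limma). The probe sequences are not in the table, so which part of the transcript each probe reads is not given here.

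**Figure D2:**
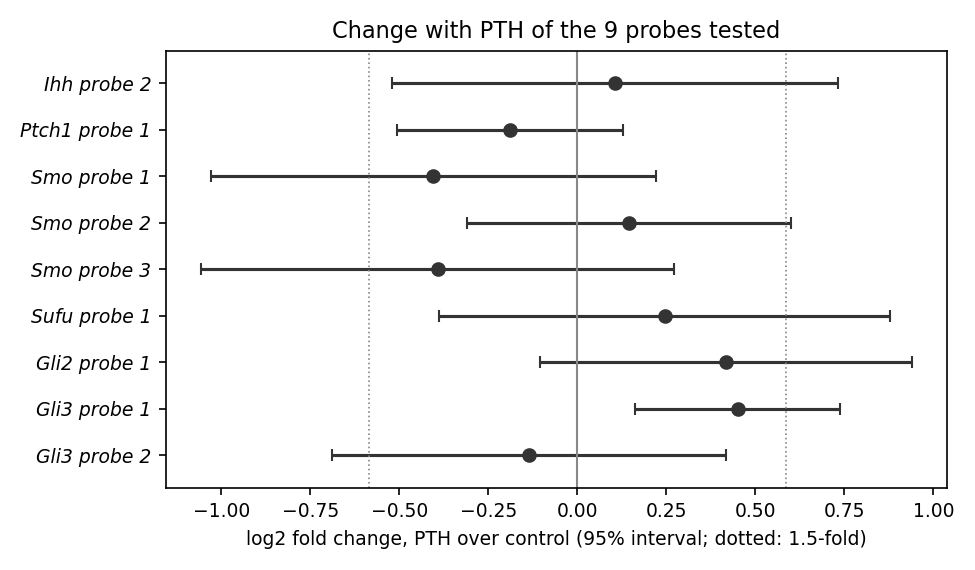
Log2 fold change of PTH over control (x axis) with its 95% interval from limma for the 9 Hedgehog probes tested (y axis). The interval of *Gli3* probe 1, 0.16 to 0.74, lies above 0, while those of the other 8 probes include 0.

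**Figure D3:**
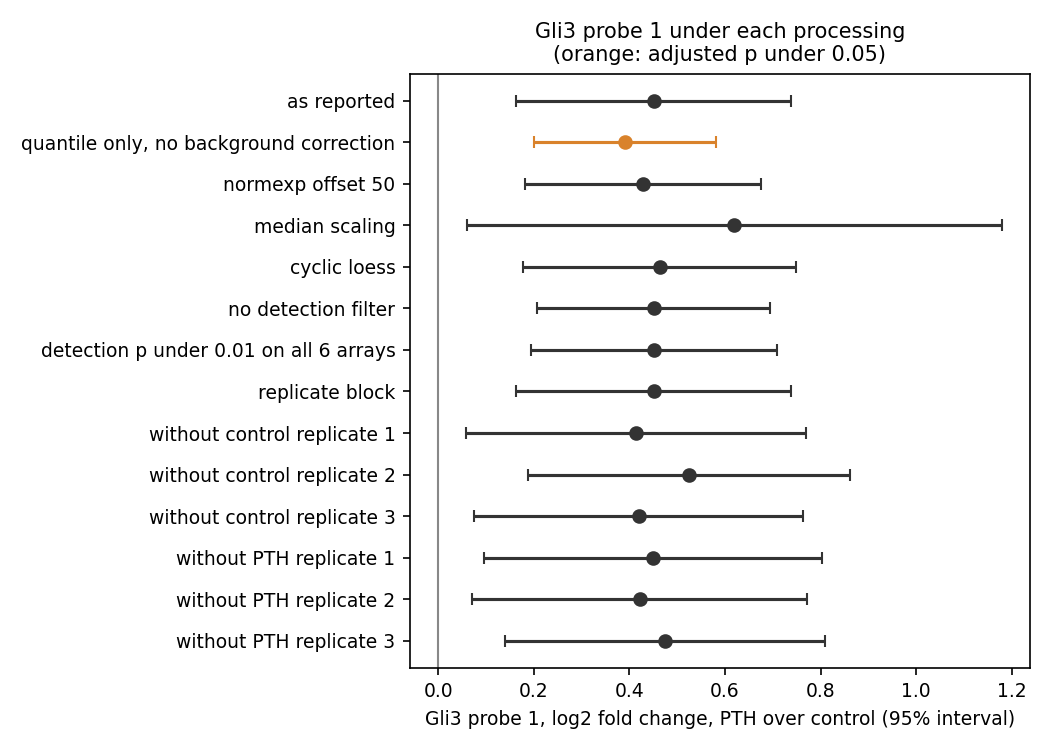
Log2 fold change of *Gli3* probe 1 (x axis, points with 95% intervals) as reported and under each of 13 alternatives for this probe (y axis), with an adjusted p under 0.05 in orange. The change stays between 0.39 and 0.62, and 1 alternative passes.

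Across the 6 arrays the genes whose log2 signal ran most nearly parallel to *Gli3* probe 1 were *Ndufa1* (Pearson r = 0.9972), *Cenpa* (0.9935) and *Wasf1* (0.9896). With only 6 arrays in 2 groups, 0.827% of 11978 genes had an r above 0.95, and these values are a description.

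Marker genes of several cell types differed between the groups on the same arrays, and the part of cell types in the *Gli3* difference was not tested. Of 13 osteocyte and osteoblast genes, 11 were tested, with *Fgf23* and *Runx2* above background on no array, and 3 were called lower with PTH and 0 higher. Of all genes tested, 1.73% were called in either direction. Their signals, summed on the linear scale and expressed as log2 like the sums that follow, came to 15.31 to 15.38 in control and 14.70 to 14.80 with PTH. The sum of 3 red cell genes went from 13.06 to 13.29 in control to 11.21 to 11.36 with PTH, with 2 called lower, *Hba-a1* at -1.98 (adjusted p = 0.000747 by limma) among them. The sum of 9 neutrophil genes was 15.75 to 15.77 in control and 15.11 to 15.28 with PTH, with 6 called lower, and that of 6 macrophage genes 12.50 to 12.54 and 12.15 to 12.24, with none called. The sum of 5 osteoclast genes was 13.53 to 13.70 in control and 13.97 to 14.32 with PTH, with 2 called higher. Bright probes weigh most in these sums, and the shares are of signal, not of transcripts. A sum need not move with its brightest gene. *Cd68*, at -0.02 (adjusted p = 0.968 by limma), made up 32.4% to 49.5% of the macrophage sum. *Ctsk*, not called at 0.36 (adjusted p = 0.328 by limma), made up 60.6% to 69.8% of the osteoclast sum. *Hbb-b1* made up 56.6% to 61.5% of the red cell sum and *S100a8* 44.1% to 54.5% of the neutrophil sum. Stromal and perivascular genes, of which 10 of 12 were tested, summed to 14.91 to 15.08 in control and 14.99 to 15.15 with PTH, but the smooth muscle actin gene *Acta2* made up 81.2% to 86.9% of that sum. Among them *Dcn*, the gene of the matrix proteoglycan decorin, was called higher at 0.83 (adjusted p = 0.0181 by limma) and every PTH array exceeded every control array, as it did for *Lum* at 0.61 and *Pdgfra* at 0.59, which did not pass (adjusted p = 0.0643 and 0.188 by limma). *Cspg4*, a pericyte gene, had a log2 fold change of -1.02 (adjusted p = 0.176 by limma), its groups also being apart. It was above background on 3 control arrays and 2 PTH arrays. The sum of 8 endothelial genes was 11.07 to 11.22 in control and 11.05 to 11.21 with PTH, with none called. None of the 3 fat genes and 1 skeletal muscle gene tested was called, and their sums overlapped between the groups. Between 34.2% and 38.4% of all probes were above background on an array.

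The rest of the pathway was described by 77 further genes, 75 of which had a row and 48 of which were tested. None was called by the same criteria, where 1.73% of all genes were (limma, brightest probe of each gene). At an unadjusted p under 0.05, 3 were higher and 6 lower with PTH, together 9 of 48, against 14.9% of all genes. The median log2 fold change of the 48 was -0.06.

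Of 8 genes for other ligands and ligand release, 2 were tested. The ligand genes *Shh* and *Dhh* were above background on no array. *Hhat*, the acyltransferase that adds palmitate to the ligand, had a log2 fold change of -0.40 (SE 0.32, adjusted p = 0.632 by limma). *Disp1*, which releases the lipid-bearing ligand from the cell, had one of 0.14 (SE 0.16, adjusted p = 0.756 by limma). Of 6 further receptor and coreceptor genes, 2 were tested. The coreceptor gene *Cdon* had a log2 fold change of 0.31 (SE 0.20, adjusted p = 0.531 by limma) and the glypican gene *Gpc3* one of -0.09 (SE 0.23, adjusted p = 0.900 by limma).

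Among transducers of the signal, 16 of 22 genes were tested, with a median log2 fold change of -0.07. *Tulp3*, whose protein carries receptors into the cilium, read 5.70, 6.10 and 6.25 in control and 6.79, 6.61 and 6.48 with PTH, giving a log2 fold change of 0.61 (SE 0.17, adjusted p = 0.156 by limma). *Ulk3*, a kinase that acts on GLI proteins, listed as *1200015E14Rik*, had a log2 fold change of -0.40 (SE 0.13, adjusted p = 0.205 by limma). The groups were apart on both genes, and neither passed. The kinase subunit genes *Prkaca*, *Prkacb* and *Prkar1a* had log2 fold changes of -0.18, -0.08 and 0.28 (adjusted p = 0.527, 0.831 and 0.451 by limma).

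Of 23 genes of the primary cilium, 19 were tested, with a median of -0.06. *Arl3*, a small GTPase that delivers lipid-modified proteins to the cilium, read 8.84, 8.79 and 9.03 in control and 8.22, 8.29 and 8.15 with PTH. Every PTH array was below every control array. Its log2 fold change of -0.67 (SE 0.13) missed the threshold narrowly, with an adjusted p of 0.0509 (limma). The adjusted p was under 0.05 in 4 of 13 alternatives, 1 of which left the fold change under 1.5. *Ift88*, a subunit of the intraflagellar transport complex, had a log2 fold change of -0.50 (SE 0.16, adjusted p = 0.198 by limma). *Tctn2*, a gene of the transition zone listed as *4432405B04Rik*, had one of -0.82 (SE 0.28, adjusted p = 0.229 by limma) and overlapping groups, with 3 control arrays and 1 PTH array above background.

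Of 18 genes raised by Hedgehog signalling in one tissue or another, 9 were tested, 5 above 0 and 4 below, with a median of 0.05. *Bmp2*, a bone morphogenetic protein gene with several other inputs, had the lowest value, at 6.74, 6.89 and 6.20 in control and 5.93, 4.74 and 5.28 with PTH. Its probe was above background on 3 control arrays and 2 PTH arrays. The groups were apart, and its log2 fold change of -1.29 (SE 0.31) had an adjusted p of 0.0983 (limma). It was under 0.05 in 3 of the alternatives, 1 of which left the fold change under 1.5. *Foxc2*, a forkhead factor gene, had a log2 fold change of 0.29 (SE 0.12, adjusted p = 0.317 by limma), and *Bcl2*, which opposes apoptosis, one of 0.34 (SE 0.23, adjusted p = 0.569 by limma). *Pthlh*, the gene of PTH-related protein, was above background on no array, as were *Mycn*, *Foxf1*, *Jag2*, *Nkx3-2*, *Osr2* and *Hsd11b2*.

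**Figure D4:**
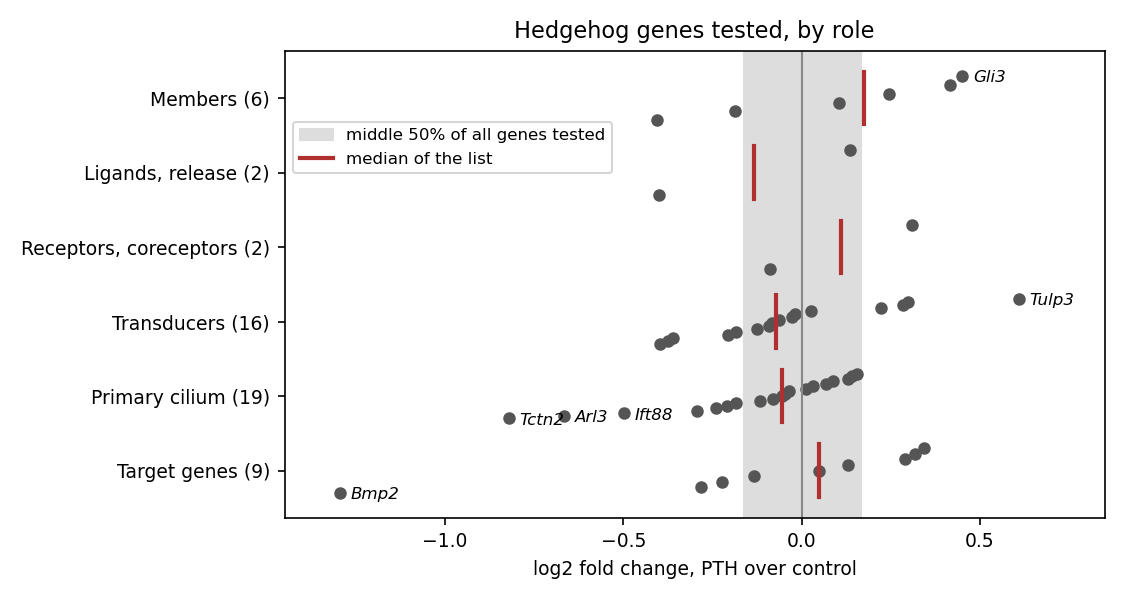
Log2 fold change of PTH over control (x axis) of each Hedgehog gene tested, by role (y axis, with the number of genes tested), with the median of each list in red and the range between the quartiles of all genes tested, -0.16 to 0.17, in grey. Medians of the lists lie between -0.13 and 0.18, and *Bmp2* at -1.29 is farthest from 0.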

How the data were processed

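The deposited table holds, per the file headers, a linear signal intensity and a detection p-value for each probe and array, exported by the authors from GenomeStudio without normalization or background subtraction. Array columns were matched to groups by title, and every column of per-sample values was used. Intensities were background corrected through the detection p-values, given an offset of 16, quantile normalized and converted to log2 values with neqc in limma 3.58.1 (R 4.3.3). Probes with a detection p under 0.05 on at least 3 of 6 arrays entered limma's lmFit and eBayes, and p-values were adjusted by Benjamini and Hochberg's method over 16214 probes. A gene outside the 9 was represented by its brightest tested probe, matched by symbol or by an older name in RefSeq (GRCm38.p6).

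Genes named were the 9 members. In each wider list they were genes called, or else the 2 with the smallest p-values and up to 2 with the largest change. *Prkaca*, *Prkacb*, *Prkar1a* and genes above background on no array were added after their values were seen. Members and lists were chosen with earlier results of these data known. Bounds use the higher of the lowest signal above background and the probe's own. Steps were tested on simulated data whose changed probes were brighter than most of the Hedgehog probes, so changes near background were not covered. Precision is limited by the number of arrays. An exact permutation test of 3 against 3 arrays cannot give a p below 0.1 and was not used. The alternatives concerned background correction, scaling, the detection filter, the replicate number as a block, single arrays left out and probe averaging. The arrays' slides are not given in the sources used here.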

Additional observations from a re-analysis of the deposited data

How the results depend on the processing

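None of the Hedgehog probes was called under any of 13 alternatives fitted probe by probe, nor was any of their genes with its tested probes averaged, and 7 of the 9 tested probes kept their direction in every one they entered. The exceptions were *Ihh* probe 2, which turned negative when 1 of 3 arrays was left out, to -0.07 at the lowest, and *Gli3* probe 2, which reached 0.07 without control replicate 1. *Gli3* probe 1 passed the adjusted p without background correction (log2 fold change 0.39, limma adjusted p = 0.0168), and with 1 array left out its change lay between 0.41 and 0.52 (limma adjusted p from 0.209 to 0.364). Among the 48 wider pathway genes, 2 were called with an offset of 50 (*Arl3* at -0.61 and *Bmp2* at -0.82), 1 with median scaling (*Bmp2*, -1.23), 1 with cyclic loess (*Arl3*, -0.66) and 1 with detection p under 0.01 on all 6 arrays (*Arl3*, -0.67), and 0 in each fit that left out 1 array. Over all probes, 261 were called, 38.3% of them higher. Median scaling called 138, 55.8% of them higher, and moved the median change of all probes to 0.11, against which *Gli3* probe 1 was at 0.51. With 1 array left out, between 68 and 106 were called. With the replicate number as a block 64 probes were called and the change of *Gli3* probe 1 was 0.45 (limma adjusted p = 0.173). Deviations of arrays with the same number correlated at 0.067, 0.0636 and 0.273. Those of control and PTH arrays with different numbers lay between -0.142 and 0.073. The pair of replicate 3 had the highest value, and its other pairs were all negative. Deviations within a group sum to 0, so these values are not independent of each other. Percentages of probes above background were also close within a number (34.8 and 34.2, 36.3 and 36.1, 38.4 and 38.4). Whether arrays of a number shared a preparation or batch was not tested, and the reported fit did not pair them. With the block, the interval of *Smo* probe 1 lay below 0, at -0.70 to -0.11 (limma adjusted p = 0.203). A slide block was not run. Signal near background limits what could be seen for *Hhip*, *Gas1* and all but 5 of the 17 probes.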
